A study of Homo sapiens with 6 samples.

Results

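Hemidesmosome and laminin-332 genes were examined in 6 RNA sequencing libraries of a human breast cancer line labelled MB231, which is read here as MDA-MB-231. The 7 genes were chosen by symbol, COL17A1, ITGA6, ITGB4, DST, PLEC, LAMA3 and LAMB3, and each was found on 1 row of a table of 58735 genes. The shPAK5 group held 3 libraries whose genotype was labelled PAK5 knockdown, and the shNC group held 3 libraries labelled wild type. The group names mark short hairpin RNAs against PAK5, a p21-activated kinase, and a control hairpin; the sources used here do not give the hairpin sequences, the number of clones or whether cultures were separate, so the spread behind each p-value may be technical. The 7 genes were chosen with levels and differences of these libraries already known, so everything given below on their levels and on shPAK5 against shNC is a description, and the p-values printed with it support nothing beyond it.

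Hemidesmosomes are the plaques that hold epithelial cells to the basement membrane. At their core the integrin alpha6beta4 and the transmembrane collagen XVII bind laminin-332 outside the cell, and inside the cell the plakins plectin and dystonin (BP230) link them to keratin filaments. Laminin-332 is a trimer whose alpha3 and beta3 chains are encoded by LAMA3 and LAMB3, and these genes and those of the integrin are known as features of basal epithelia and of many invasive carcinomas. The alpha6 and beta4 subunits, and the chains of laminin-332, assemble in fixed proportions, while collagen XVII and beta4, or plectin and dystonin, share the plaque without forming such a pair.

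Levels are in FPKM, fragments per kilobase of gene length after scaling for depth, and the 6 libraries held 15085168 to 18146091 reads. PAK5 had 0 reads in all 6 libraries, which allows up to 0.0335 to 0.0403 FPKM per library for counting error only, so these data give no check of the knockdown. Of the genes known to be high in MDA-MB-231, VIM was at 164 ± 3.09 FPKM in shPAK5 and 149 ± 10.2 FPKM in shNC (SD, n = 3 each) and CD44, CAV1, AXL and MSN were also present, but SPARC and FN1 were near 0, with at most 18 and 35 reads in any library. Of those known to be low or lost in that line, ESR1, PGR and CLDN3 were near 0, whereas EPCAM was at 128 ± 2.72 FPKM in shPAK5 and 109 ± 7.69 FPKM in shNC, KRT19 at 1465 ± 4.65 FPKM in shPAK5 and 1410 ± 48.1 FPKM in shNC, and CDKN2A at 30.8 ± 0.547 FPKM in shPAK5 and 33.4 ± 1.03 FPKM in shNC. CDH1, CLDN4 and CLDN7 were also above 1 FPKM, so that 6 of these 9 genes were present. The values go against the labelled line in these markers, and their part in the results below was not tested. Markers of basal epithelium were mostly absent: TP63 had at most 2 reads and KRT14 at most 12 reads in any library, and KRT5 was at 36.9 ± 1.22 FPKM in shPAK5 and 38.7 ± 1.75 FPKM in shNC. Summed over their lists, leukocyte markers came to at most 0.333 FPKM and endothelial markers to at most 0.0931 FPKM in any library. Among 6 fibroblast markers LUM alone passed 1 FPKM, and it was high, at 114 ± 0.688 FPKM in shPAK5 and 111 ± 11.9 FPKM in shNC.

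Windows around transcription starts are shown for COL17A1, which among the 7 genes had the largest difference between the groups, and for the laminin chain genes LAMA3 and LAMB3, because these promoters can be compared by the motif TGANTCA, the binding sequence of AP-1 (FOS and JUN proteins), which is known to drive laminin-332 genes in keratinocytes. The windows run from 250 bases before to 50 bases after a start, 5′ to 3′ on the strand of the gene, and come from RefSeq (GRCh38.p14). Capitals mark TGANTCA, which reads the same on both strands. They are COL17A1 on the minus strand at chr10:104085831-104086130, LAMA3 on the plus strand at chr18:23872770-23873069 and LAMB3 on the minus strand at chr1:209651325-209651624.
COL17A1: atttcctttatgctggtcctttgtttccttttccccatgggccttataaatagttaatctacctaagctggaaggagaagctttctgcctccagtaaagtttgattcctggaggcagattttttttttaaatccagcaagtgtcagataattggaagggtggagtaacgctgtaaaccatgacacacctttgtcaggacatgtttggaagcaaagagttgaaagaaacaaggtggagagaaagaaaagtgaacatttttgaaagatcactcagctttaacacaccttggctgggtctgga
LAMA3: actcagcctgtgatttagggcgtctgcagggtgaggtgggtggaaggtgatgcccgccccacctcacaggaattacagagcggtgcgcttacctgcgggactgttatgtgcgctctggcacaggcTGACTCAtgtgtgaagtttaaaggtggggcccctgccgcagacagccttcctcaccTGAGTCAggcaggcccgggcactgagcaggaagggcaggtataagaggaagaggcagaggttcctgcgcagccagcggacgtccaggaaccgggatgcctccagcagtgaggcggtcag
LAMB3: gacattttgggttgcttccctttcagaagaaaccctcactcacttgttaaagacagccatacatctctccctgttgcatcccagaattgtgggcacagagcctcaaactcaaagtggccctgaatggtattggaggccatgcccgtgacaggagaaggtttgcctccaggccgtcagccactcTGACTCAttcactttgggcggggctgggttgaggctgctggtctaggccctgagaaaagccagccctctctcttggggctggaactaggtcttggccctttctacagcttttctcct

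The LAMA3 window, which lies among the starts of the short transcripts of that gene, held 2 matches, which begin at positions -125 and -69 relative to the start. The LAMB3 window shown held 1 match, at -67, while the other windows of LAMB3, at chr1:209652376-209652675 and chr1:209652280-209652579, held none. The COL17A1 window held none. RefSeq windows were read for 5 of the 7 genes, 10 windows in all. Of these, 3 held a match: the 2 described and a DST window with a match 25 bases after the start. No window was found for ITGB4, and windows on chromosome 8, where PLEC lies, were left out of the search. Of 35116 windows of the same length over all genes, 7.71% held the motif. A match is a description of letters, not of a bound site.

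The 7 genes spanned a wide range of levels, with ITGB4 at the top and LAMA3 at the bottom. Averaged over all 6 libraries, ITGB4 was at 405 FPKM, PLEC at 94.7, LAMB3 at 58.8, ITGA6 at 45.1, COL17A1 at 43.2, DST at 6.55 and LAMA3 at 3.87 FPKM. Neighbours in this order did not overlap in any of the 6 libraries except ITGA6 and COL17A1. The order holds for the gene lengths of the deposited values. If all LAMA3 reads came from its short transcript, LAMA3 would stand at 9.20 to 11.1 FPKM, above DST as given here, at 6.11 to 6.89 FPKM. With a short transcript of its own, DST would stand at 28.7 to 32.4 FPKM. ITGB4 ranked 54 to 64 among 19951 protein-coding genes, depending on the library, and LAMA3 ranked 6675 to 7334. All 7 genes passed the filter of the test, a mean of at least 1 FPKM, and the smallest read count behind any of their values was 815, for LAMA3. Together they took 0.549% to 0.574% of the reads of the shPAK5 libraries and 0.497% to 0.589% of those of the shNC libraries.

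**Figure D1:**
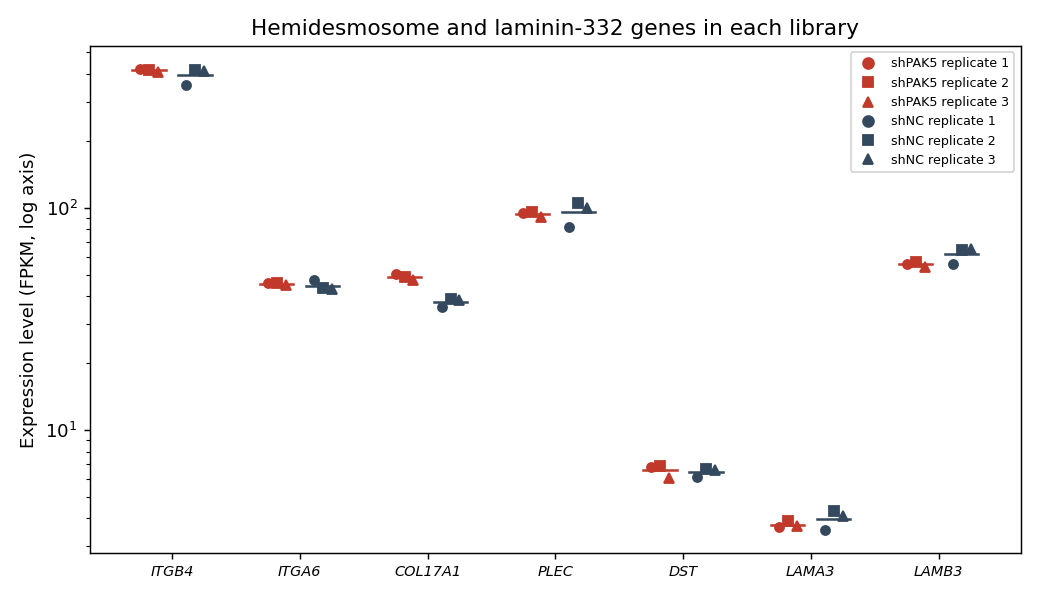
Expression level of each gene in FPKM (log axis) in each of the 3 shPAK5 and 3 shNC libraries; points are libraries and horizontal lines are group means. COL17A1 is the only gene of the 7 whose shPAK5 libraries, at 47.2 to 50.3 FPKM, all lie above its shNC libraries, at 35.7 to 38.8 FPKM.

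COL17A1 (ENSG00000065618, GRCh38 chr10:104031286-104085957, minus strand, 57 exon blocks, 7066 bases) encodes collagen XVII (BP180), the transmembrane collagen that ties the plaque to laminin-332. It stood at 50.3, 48.9 and 47.2 FPKM in shPAK5 replicates 1 to 3, against 35.7, 38.8 and 38.3 FPKM in shNC replicates 1 to 3. The 3 shPAK5 libraries were all higher than the 3 shNC libraries, and the gap between the groups was wider than the spread within either. In RNA from whole cultures, a change in the share of cells with the transcript and a change in transcript per cell cannot be told apart. The means were 48.8 ± 1.59 FPKM in shPAK5 and 37.6 ± 1.69 FPKM in shNC (SD, n = 3 each), a ratio of 1.30. On the log2(FPKM + 1) scale the difference was 0.37 ± 0.05 (SE), with a 95% interval from 0.26 to 0.48, and limma's adjusted p over 11237 genes was 0.0502, which misses the threshold of 0.05. Among the epithelial genes listed as low in MDA-MB-231, CDH1, the gene of E-cadherin, was at 5.84 ± 0.0905 FPKM in shPAK5 and 4.64 ± 0.1797 FPKM in shNC (ratio 1.26), without overlap between the groups. EPCAM (ratio 1.17), CLDN7 (1.07) and KRT19 (1.04) were also higher in shPAK5 without overlap, CLDN4 (1.02) overlapped, and the non-epithelial CDKN2A of the same list was lower without overlap (0.921). The whole list summed to 1695 to 1696 FPKM in shPAK5 libraries and 1576 to 1668 FPKM in shNC libraries. Most of that sum was KRT19 alone, at 1461.4 to 1470.5 FPKM in shPAK5 and 1359.2 to 1454.6 FPKM in shNC. The part of the list in the difference of COL17A1 was not tested. Of the genes listed as high in MDA-MB-231, VIM (1.10), CD44 (1.10) and AXL (1.11) were also higher in shPAK5 without overlap. CAV1 (0.942) and MSN (0.985) overlapped, and near 0 FN1 was higher and SPARC lower without overlap. The sums of this list overlapped, at 329 to 335 FPKM in shPAK5 libraries and 301 to 331 FPKM in shNC libraries. The epithelial keratin gene KRT18 was lower without overlap (0.922), and KRT8 overlapped (0.949). Of all tested genes, 12.6% were higher and 10.5% lower in shPAK5 without overlap. COL17A1 was 14th of the 11237 genes by p-value and 238th by the size of its difference.

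No member passed the limma threshold with all 6 libraries. Of the 11237 tested genes, 13 passed (0.116%), with 10 higher (0.089%) and 3 lower (0.0267%) in shPAK5, while 1908 had an unadjusted p under 0.05 (17.0%), as did 2 of the 7 members, COL17A1 and LAMB3. Groups that did not overlap were found in 1 of the 7 members, COL17A1, and in 23.1% of the tested genes (12.6% higher and 10.5% lower in shPAK5). COL17A1 passed in limma-voom on the recovered reads (adjusted p = 0.00206), where 1.02% of the tested genes passed, 0.828% of the tested genes upward, and in limma without shNC replicate 1 (adjusted p = 0.0287), where 8.34% passed, 5.53% upward. It also passed with a correction for base composition, chosen after seeing the data (limma adjusted p = 0.00730, with 0.516% of genes passing, 0.392% upward). Over 18 alternatives its log2 difference ran from 0.33 to 0.42 and its adjusted p from 2.52e-06 to 0.261, with 7 alternatives past the threshold. These 7 include the fits with that correction, and the lowest value came from limma-voom with it, where 399 of the 11237 tested genes passed. COL17A1 did not pass when any library other than shNC replicate 1 was left out (limma adjusted p = 0.0846 to 0.261). With a block for replicate number it did not pass either (limma adjusted p = 0.133).

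ITGB4 (ENSG00000132470, chr17:75721328-75757818, plus strand, 41 exon blocks, 6761 bases) encodes the beta4 subunit, whose long cytoplasmic tail binds plectin. It stood at 421, 417 and 408 FPKM in shPAK5, against 358, 415 and 412 FPKM in shNC, replicates 1 to 3 in each. The groups overlapped, and shNC replicate 1 was lower than the other 5 libraries. The log2 difference was 0.08 ± 0.06 (SE), with a 95% interval from -0.06 to 0.21 (limma adjusted p = 0.537). Without shNC replicate 1 it was 0.01 (limma adjusted p = 0.922).

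ITGA6 (ENSG00000091409, chr2:172427354-172506282, plus strand, 28 exon blocks, 6533 bases) encodes the alpha6 subunit, the only partner that beta4 is known to have. It stood at 45.6, 46.0 and 44.9 FPKM in shPAK5, against 47.4, 43.4 and 43.2 FPKM in shNC. The shPAK5 values lay inside the range of shNC, with shNC replicate 1 highest of all 6 libraries. The log2 difference was 0.03 ± 0.05 (SE), with a 95% interval from -0.08 to 0.14 (limma adjusted p = 0.782). Antisense genes overlap 5.37% of its exonic bases, and reads there cannot be assigned without strand information.

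PLEC (ENSG00000178209, chr8:143915147-143976734, minus strand, 44 exon blocks, 16991 bases) encodes plectin, the large linker that joins beta4 to keratin filaments. It stood at 94.5, 96.2 and 90.7 FPKM in shPAK5, against 81.9, 104.8 and 99.98 FPKM in shNC. All shPAK5 values lay between shNC replicate 1 and the other shNC libraries. The log2 difference was -0.02 ± 0.09 (SE), with a 95% interval from -0.22 to 0.18 (limma adjusted p = 0.925). It was -0.13 without shNC replicate 1 (limma adjusted p = 0.0890).

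DST (ENSG00000151914, chr6:56457987-56954628, minus strand, 113 exon blocks, 42341 bases) encodes dystonin, of which the epithelial form BP230 binds keratins at the plaque, while other forms serve in neurons and muscle. It stood at 6.83, 6.89 and 6.11 FPKM in shPAK5, against 6.17, 6.65 and 6.63 FPKM in shNC. The groups overlapped over nearly their whole range. The log2 difference was 0.02 ± 0.06 (SE), with a 95% interval from -0.12 to 0.17 (limma adjusted p = 0.873).

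LAMB3 (ENSG00000196878, chr1:209614870-209652466, minus strand, 24 exon blocks, 4688 bases) encodes the beta3 chain, which among laminins is known only from laminin-332. It stood at 55.8, 56.9 and 54.2 FPKM in shPAK5, against 55.9, 64.8 and 64.9 FPKM in shNC. The 3 shPAK5 libraries and shNC replicate 1 lay close together, below shNC replicates 2 and 3. The means were 55.6 ± 1.35 FPKM in shPAK5 and 61.9 ± 5.16 FPKM in shNC (SD, n = 3 each), and the log2 difference was -0.15 ± 0.06 (SE), with a 95% interval from -0.29 to -0.0034 (limma adjusted p = 0.288). Without shNC replicate 1 the difference was -0.22 and LAMB3 passed (limma adjusted p = 0.0322), in a fit where 8.34% of all tested genes passed, 2.81% downward. With the correction for base composition and without shNC replicate 1, the difference was -0.13 and LAMB3 did not pass (limma adjusted p = 0.122).

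LAMA3 (ENSG00000053747, chr18:23689443-23956222, plus strand, 80 exon blocks, 14678 bases) encodes the alpha3 chain, which carries the part of laminin-332 that integrins bind. It stood at 3.67, 3.90 and 3.68 FPKM in shPAK5, against 3.55, 4.30 and 4.10 FPKM in shNC. The groups overlapped, with shNC replicate 1 lowest of the 6 libraries. The log2 difference was -0.07 ± 0.07 (SE), with a 95% interval from -0.23 to 0.10 (limma adjusted p = 0.657).

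**Figure D2:**
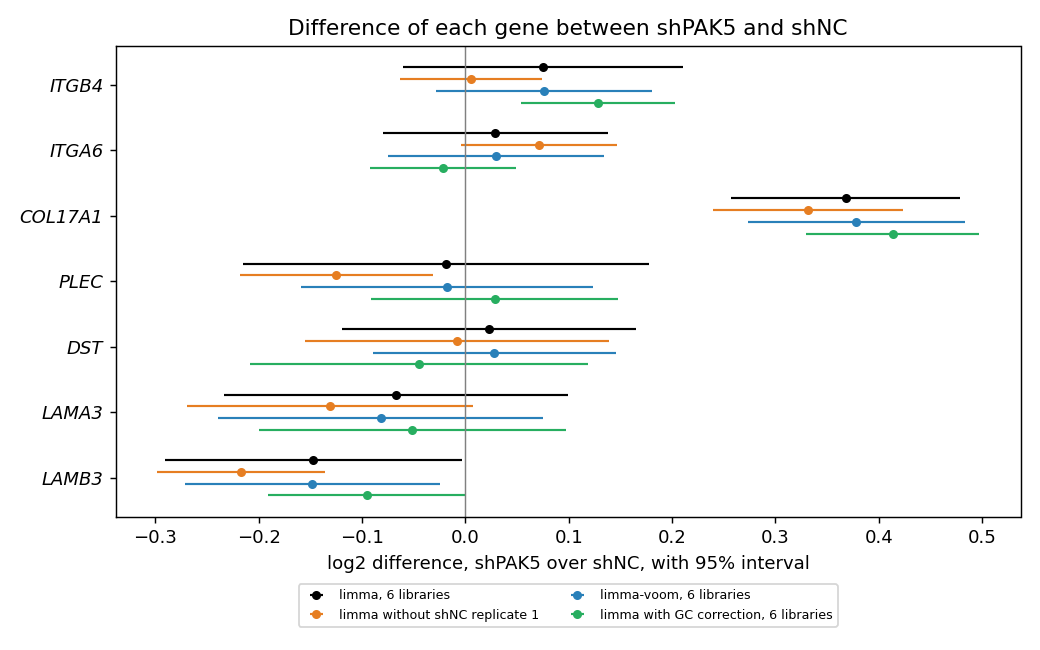
Difference of each gene between shPAK5 and shNC on a log2 scale with its 95% interval, from limma with all 6 libraries, limma without shNC replicate 1, limma-voom and limma with a correction for base composition. COL17A1, at 0.37 with all 6 libraries, is the only gene whose interval lies above 0 in all 4 fits, and the interval of LAMB3 reaches furthest below 0 without shNC replicate 1.

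The library shNC replicate 1 was lowest of the 6 for 4 of the 7 members, COL17A1, ITGB4, PLEC and LAMA3, and highest for ITGA6. How often it was lowest over all tested genes was not counted. By median absolute log2 deviation from the other 5 libraries over the tested genes, shNC replicate 2 stood furthest out (0.105), against 0.0753 for shNC replicate 1. Members differed in base composition, from 41.3% G and C in the longest transcript of DST and 42.9% in that of ITGA6 to 63.7% in ITGB4 and 67.0% in PLEC. Across the 1698 tested genes with at least 60% G and C, the median deviation from the mean of the 6 libraries was -0.03 to -0.02 (log2) in the shPAK5 libraries, against -0.06 in shNC replicate 1, 0.08 in replicate 2 and 0.07 in replicate 3. Across the 4143 tested genes under 45% it was 0.030 to 0.050 in shPAK5, against 0.045, -0.103 and -0.055 in shNC replicates 1 to 3. In each class shNC replicate 1 lay nearer shPAK5 than the other shNC libraries did. In uncorrected fits without it, group and base composition effects cannot be told apart. After the correction for base composition the log2 difference of ITGB4 was 0.13 ± 0.03 (SE) and did not pass in limma (adjusted p = 0.129). It passed in limma-voom with the same correction (adjusted p = 0.0276), where 399 of the 11237 tested genes passed, 251 higher and 148 lower. The difference of COL17A1 after correction was 0.41 ± 0.04 (SE).

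Within a library the ratio of 2 FPKM values is free of the scaling of that library. ITGB4 was 9.23, 9.06 and 9.09 times as high as ITGA6 in shPAK5, against 7.55, 9.57 and 9.56 times in shNC. The shPAK5 libraries lay within the range of shNC, and the log2 ratio of ITGA6 to ITGB4 differed by -0.05 between the groups (two-sided exact permutation test, p = 1, 3 against 3, for which the smallest p is 0.1). Without shNC replicate 1 that difference was 0.07, and with both genes corrected for base composition it was -0.15 (exact permutation p = 0.1, the smallest possible). The alpha6 subunit can also pair with beta1, whose gene ITGB1 was at 157 ± 1.11 FPKM in shPAK5 and 152 ± 6.54 FPKM in shNC (SD, n = 3 each).

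The proportion of COL17A1 to ITGB4 separated the groups. COL17A1 alone already separated them, while ITGB4 overlapped with a log2 difference of 0.08, so the ratio is not separate evidence on balance. The ratio of COL17A1 to ITGB4 was 0.119, 0.117 and 0.116 in shPAK5, against 0.0997, 0.0934 and 0.0929 in shNC. All shPAK5 libraries were above all shNC libraries, and the difference of the log2 ratio was 0.30 (exact permutation p = 0.1, the smallest possible, and 0.4 after adjustment over the 4 ratios computed). It lay between 0.28 and 0.33 whichever library was left out.

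The laminin chains were unequal in level in every library. LAMB3 exceeded LAMA3 by 15.2, 14.6 and 14.7 times in shPAK5, against 15.7, 15.1 and 15.8 times in shNC. The groups overlapped, and the log2 ratio of LAMA3 to LAMB3 differed by 0.07 (exact permutation p = 0.2). The gene length of LAMA3, 14678 bases, covers long and short forms, and laminin-332 takes up the product of the short form, whose transcript ENST00000269217 has 5671 bases. If all LAMA3 reads came from that transcript, LAMA3 would stand at 9.71 FPKM in shPAK5 and 10.3 FPKM in shNC, still below LAMB3.

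PLEC exceeded DST by 13.8, 13.96 and 14.9 times in shPAK5, against 13.3, 15.7 and 15.1 times in shNC. The groups overlapped, and the log2 ratio of DST to PLEC differed by 0.05 (exact permutation p = 0.6). With both genes corrected for base composition it differed by -0.07 (exact permutation p = 0.1, the smallest possible). The gene length of DST, 42341 bases in 113 exon blocks, adds up forms that no single transcript holds in full. If all reads came from ENST00000370765, a transcript of 8999 bases and 24 exons, DST would stand at 28.7 to 32.4 FPKM, below PLEC at 81.9 to 105 FPKM.

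**Figure D3:**
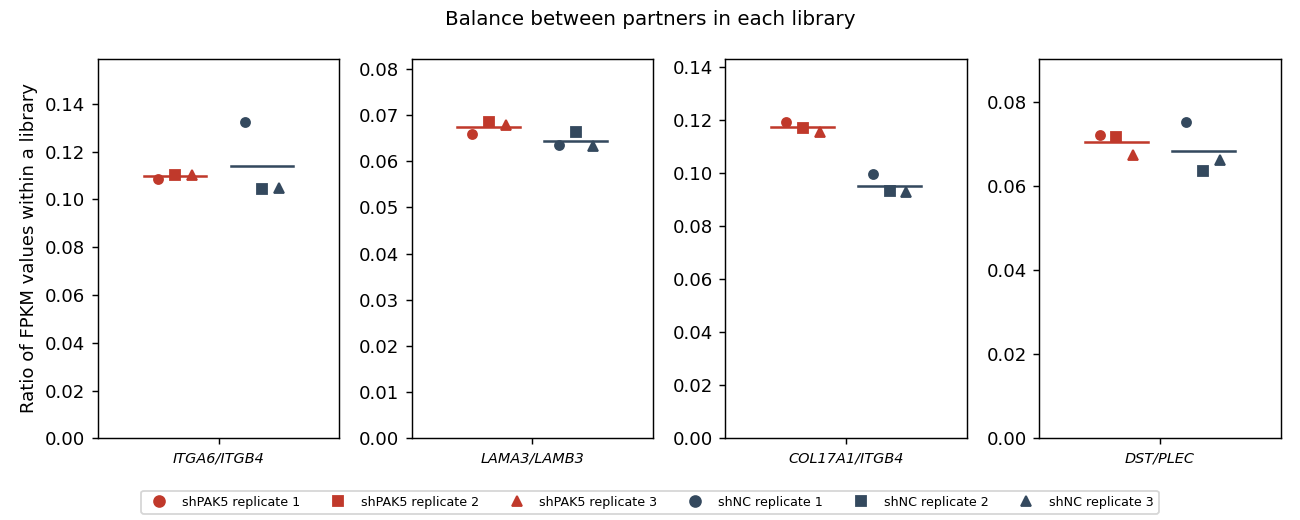
Ratio of the FPKM values of 2 genes within each library, for 4 pairs of partners; points are libraries, horizontal lines are group means and each axis starts at 0. The ratio of COL17A1 to ITGB4, at 0.116 to 0.119 in shPAK5 and 0.0929 to 0.0997 in shNC, shows no overlap between the groups, while the other ratios, drawn like it without correction for base composition, overlap.

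Other genes of the same structures were taken from 7 lists, and no gene of these lists passed in limma with all 6 libraries, against 0.116% of all tested genes. The median log2 difference was 0.02 over the 7 members and 0.0038 over all 11237 tested genes. Of the 9 other laminin chain genes listed 4 were tested, all with a negative difference whose 95% interval included 0, and with a median of -0.07. With the correction for base composition the difference of LAMA5 was 0.0050, and those of the other 3 stayed negative. LAMA5, the alpha chain of laminins of most epithelia, was at 32.6 ± 1.10 FPKM in shPAK5 and 33.9 ± 5.60 FPKM in shNC (SD, n = 3 each), LAMB1 at 28.2 ± 0.512 FPKM in shPAK5 and 29.1 ± 1.81 FPKM in shNC, and LAMC1 at 26.2 ± 0.714 FPKM in shPAK5 and 27.8 ± 1.05 FPKM in shNC. LAMB2 passed without shNC replicate 1 (limma adjusted p = 0.0355, log2 difference -0.20), where 8.34% of all tested genes passed. With the correction for base composition and all 6 libraries it was at -0.042 and did not pass (limma adjusted p = 0.767).

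**Figure D4:**
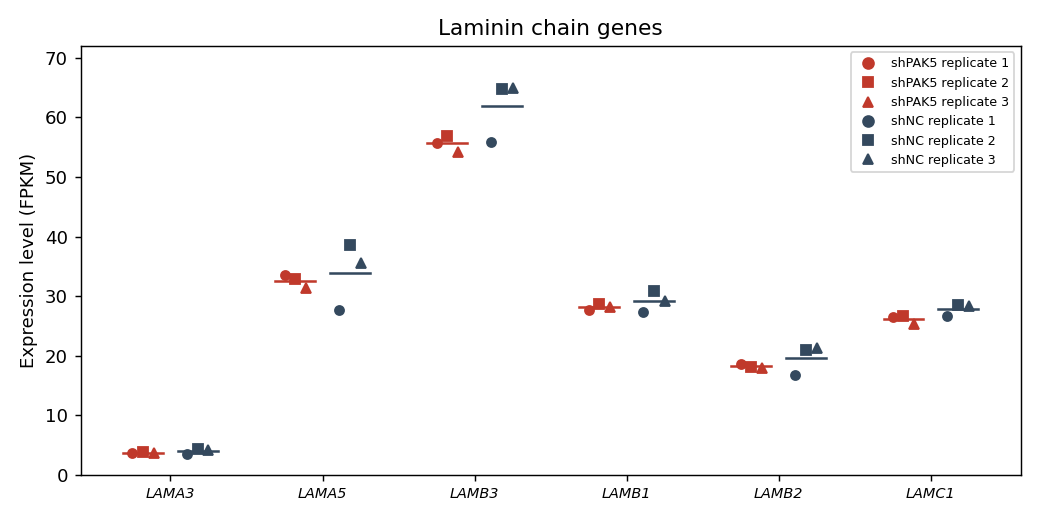
Expression level in FPKM of 6 laminin chain genes, in each shPAK5 and shNC library; points are libraries and horizontal lines are group means. LAMB3 is the highest of them, at 54.2 to 56.9 FPKM in shPAK5 and 55.9 to 64.9 FPKM in shNC, and LAMA3 the lowest.

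All 7 laminin receptors and partners were tested, with a median log2 difference of -0.03. ITGA3, whose product pairs with beta1 as the other main integrin for laminin-332, was at 39.5 ± 0.776 FPKM in shPAK5 and 41.0 ± 3.14 FPKM in shNC (SD, n = 3 each). CD151, the tetraspanin of hemidesmosomes, was at 62.3 ± 1.92 FPKM in shPAK5 and 64.6 ± 4.14 FPKM in shNC, and the heparan sulfate proteoglycan gene SDC1 at 129 ± 3.10 FPKM in shPAK5 and 127 ± 1.87 FPKM in shNC. Of the 5 other plakins 4 were tested, with a median of 0.04, and the desmosomal linker DSP was at 20.3 ± 0.672 FPKM in shPAK5 and 18.6 ± 0.256 FPKM in shNC (limma adjusted p = 0.253). EVPL was at 28.3 ± 0.310 FPKM in shPAK5 and 29.2 ± 2.15 FPKM in shNC, and MACF1 at 6.67 ± 0.167 FPKM in shPAK5 and 6.52 ± 0.279 FPKM in shNC.

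Of the 8 keratins 4 were tested, with a median of -0.07, and KRT8 and KRT18, partners of simple epithelia, were at 955 ± 15.6 and 805 ± 15.5 FPKM in shPAK5 and at 1006 ± 31.7 and 874 ± 14.5 FPKM in shNC (SD, n = 3 each). KRT14, the usual partner of KRT5, was nearly absent beside it. Of 11 other basement membrane genes 2 were tested, the proteoglycan genes AGRN, at 46.3 ± 0.445 FPKM in shPAK5 and 48.2 ± 5.15 FPKM in shNC, and HSPG2, at 14.5 ± 0.667 FPKM in shPAK5 and 14.3 ± 2.23 FPKM in shNC. AGRN passed without shNC replicate 1 (limma adjusted p = 0.0432), where 8.34% of all tested genes passed. It did not pass with the correction for base composition and all 6 libraries (log2 difference -0.0065, limma adjusted p = 0.957). Of 8 genes for processing and shedding 6 were tested, with a median of -0.03. ADAM9 was at 92.4 ± 1.89 FPKM in shPAK5 and 91.4 ± 3.56 FPKM in shNC, FURIN at 14.1 ± 0.375 FPKM in shPAK5 and 13.8 ± 1.47 FPKM in shNC, and ADAM10 at 13.1 ± 0.0848 FPKM in shPAK5 and 11.5 ± 1.04 FPKM in shNC. ADAM10 passed without shNC replicate 1 (limma adjusted p = 0.0404), where 8.34% of all tested genes passed. It did not pass with the correction for base composition and all 6 libraries (log2 difference 0.062, limma adjusted p = 0.41).

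Of 9 regulators and signalling genes 7 were tested, with a median of 0.10. The receptor gene MET was at 102 ± 1.15 FPKM in shPAK5 and 92.5 ± 2.11 FPKM in shNC (limma adjusted p = 0.173), the adaptor gene SHC1 at 79.7 ± 1.35 FPKM in shPAK5 and 89.2 ± 3.56 FPKM in shNC (limma adjusted p = 0.188), and FERMT1, which encodes kindlin-1, at 77.5 ± 0.236 FPKM in shPAK5 and 78.8 ± 2.23 FPKM in shNC. SHC1 passed without shNC replicate 1 (limma adjusted p = 0.0323), where 8.34% of all tested genes passed. It did not pass with the correction for base composition and all 6 libraries (log2 difference -0.114, limma adjusted p = 0.108). ZEB1, a repressor of epithelial genes, was at 2.24 ± 0.196 FPKM in shPAK5 and 2.58 ± 0.196 FPKM in shNC. PRKCA, a kinase known to act on beta4, was named after its values were seen: it was the only gene of the lists that passed in limma-voom (adjusted p = 0.0355), at 7.60 ± 0.505 FPKM in shPAK5 and 6.20 ± 0.201 FPKM in shNC. Its limma adjusted p was 0.168 with all 6 libraries, 0.102 with the correction for base composition and 0.063 without shNC replicate 1. In limma-voom 1.02% of all tested genes passed.

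For each member the protein-coding gene with the most similar profile was found by the root mean square difference of centred log2(FPKM + 1) values over the 6 libraries, which share depth and base composition effects across genes. COL17A1 was closest to VCAN, at 41.7 ± 1.65 FPKM in shPAK5 and 33.3 ± 1.11 FPKM in shNC (SD, n = 3 each), with a difference of 0.0338. ITGB4 was closest to MSLN (0.0153), ITGA6 to MCL1 (0.00612), PLEC to UBR4 (0.0232), DST to PRKDC (0.0139), LAMA3 to VAC14 (0.00807) and LAMB3 to NAA40 (0.0104).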

How the data were processed

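Each library has 1 column of FPKM per gene in the table deposited by the authors, which also gives a gene length in bases, an other kind of number per the file headers. The kit was NEBNext Ultra RNA, per the labels' protocols. Not given in the sources used here were the aligner, the counter and the strand setting. The build named in the submitters' processing notes is mm10, although the 58735 human gene IDs, their coordinates and their lengths are those of GENCODE 29 (GRCh38).

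FPKM times length came in whole steps (within 0.001) for 100% of values, and these steps are the reads used here. Replicate pairs differed beyond sampling noise, with chi-square over its degrees of freedom at 2.40 to 2.97 in shPAK5 and 3.44 to 10.4 in shNC. The shNC pairs with replicate 1 were at 5.90 and 10.4. Groups and replicate numbers came from the titles. Libraries with the same number did not deviate together (r = -0.024 to 0.065), so they were not paired.

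log2(FPKM + 1) values of the 11237 genes averaging 1 FPKM or more were fitted by group with limma 3.58.1 (eBayes with trend, R 4.3.3) and adjusted by Benjamini-Hochberg. This scale understates fold changes of low genes. Ratios were tested by exact permutation. The members and gene lists were chosen with earlier results of these data known. Named were all members, the closest profile of each, the 3 highest tested genes of each list (none was called) and fixed partner genes, plus the list genes called in another fit, chosen after seeing values. Alternatives were other pseudocounts, filters and scalings, no trend, limma-voom, a replicate block and each library left out. A correction for base composition (loess, span 0.3, on transcript G and C content) and transcript lengths were added after seeing the data. The scripts were tested on simulated data. A planned ratio and 1 list gene are not reported here.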

Additional observations from a re-analysis of the deposited data

How the results depend on the processing

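COL17A1, ITGB4, LAMA3 and LAMB3 kept their direction under every alternative fitted for them. Members past the threshold numbered 0 in limma with all 6 libraries. They numbered 1, COL17A1, with a mean of at least 5 FPKM (where LAMA3 was not tested), quantile normalization, limma-voom, the correction for base composition, and that correction without shNC replicate 1. They numbered 2, COL17A1 and ITGB4, in limma-voom with the correction, and 0 to 2 when a library was left out. Genes called over the table came to 13, against 7 with no filter, 31 with a mean of at least 5 FPKM, 20 with quantile normalization (13 higher and 7 lower), 115 in limma-voom, 58 with the correction, 35 with it and without shNC replicate 1, 399 in limma-voom with it (251 higher and 148 lower), and 2 to 937 when a library was left out, the 937 without shNC replicate 1. With the replicate block, where the numbers are not known to pair libraries, 2 genes and 0 members were called, and the paired exact test of the ratios cannot go below p = 0.25.

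Differences near 0 turned, and the cause was not tested. DST was at -0.045 with the correction, -0.11 with it and without shNC replicate 1, -0.039 in limma-voom with it, and -0.0079 to 0.071 when a library was left out. PLEC was at 0.029 with the correction, 0.029 in limma-voom with it, and -0.125 to 0.050 when a library was left out. ITGA6 was at -0.022 with the correction, -0.0080 with it and without shNC replicate 1, and -0.021 in limma-voom with it. The log2 ratio of DST to PLEC differed by -0.073 with the correction and by -0.0058 to 0.117 when a library was left out, and that of ITGA6 to ITGB4 by -0.15 with the correction and by -0.103 to 0.068 when a library was left out. Both corrected values have p = 0.1, the smallest the exact permutation test allows. Of the other list genes tested, LAMA5, ITGA3, ITGB1, CD151, DAG1, BCAM, EVPL and ADAM9 also turned with the correction, and PPL, HSPG2 and FURIN without shNC replicate 1. The length used sets the mean ratios over all 6 libraries: with the longest transcript of both genes LAMA3 to LAMB3 was 0.0833 (0.157 with the short transcript of LAMA3 and the longest of LAMB3), COL17A1 to ITGB4 0.116 and DST to PLEC 0.118 (0.293 with the short transcript of DST and the longest of PLEC). Ratios per coding length were planned and not run, since no protein table was used here.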
